A study of Mus musculus with 15 samples.

Results

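The genes described here encode the subunits of the respiratory chain and ATP synthase, together with the mRNAs and rRNAs of the mitochondrial genome. They were taken from the count table by symbol: Nduf genes without the Ndufaf assembly factors, Uqcr genes, Cyc1, Sdha to Sdhd, Cox4 to Cox8 genes, Atp5 genes, and the mitochondrially encoded mt-Nd, mt-Co, mt-Atp and mt-Rnr genes and the cytochrome b gene, with pseudogene symbols dropped. Of 42807 symbols in the table, 101 were members, 86 of them nuclear and 15 encoded in mitochondrial DNA. The cytochrome b gene is listed as mt-Cytb, which the rule's spelling (mt-Cyb) would miss, and without it there would be 100 members. Enough reads for testing were present for 96 members, 81 nuclear and 15 mitochondrial, among 14461 tested genes.

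RNA was sequenced from cultured mouse C2C12 cells, a myoblast line that fuses into multinucleate myotubes when serum is withdrawn. After 6 days of differentiation the cultures received Jakyak-gamcho-tang (JGT), made by extracting Paeoniae radix (peony) with an equal weight of Glycyrrhizae radix et rhizoma (licorice) in hot water, for 24 h at 20, 100 or 500 µg/mL. The vehicle group received 0.1% DMSO and a further group was non-treated, with 3 libraries in each of the 5 groups and no genetic change in any of them. The labels describe the highest dose as the one at which 80% of myotubes stayed viable. Nothing in them ties a library to its own culture, and the p-values below therefore measure the spread between libraries, which may be technical. The 6 control libraries carry sample codes of one series and the 9 JGT libraries codes of another. A difference of JGT from vehicle therefore cannot be told apart from one between those series, whereas comparisons among JGT doses are free of it. The titles of all 15 libraries begin with Batch1, without saying what that covers. The treatment labels name DMSO for the vehicle group only.

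Complex I takes electrons from NADH and complex II from succinate, ubiquinone carries them to complex III, cytochrome c carries them to complex IV, and the proton gradient made on the way drives ATP synthase, complex V. Most subunits are imported proteins of nuclear genes, but the hydrophobic core of every complex except II is made inside the organelle from mitochondrial mRNAs, on ribosomes built around the mitochondrial 12S rRNA (mt-Rnr1) and 16S rRNA (mt-Rnr2). Respiratory capacity is a defining trait of oxidative muscle fibres, and both genomes have to supply subunits for a complex to assemble.

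Several mitochondrial genes have nearly identical copies in the nuclear genome, and the deposited counts divide reads between gene and copy, so the sequences come first. The copies that matched a mitochondrial transcript at 99% identity or more over at least 90% of their own length all lie in one stretch of the minus strand of chromosome 1 (GRCm38, GENCODE M21 annotation), where they are annotated as unprocessed pseudogenes. The first pair below shows 60 bases of mt-Co2 (chrM:7013-7072, plus strand, coding exon) and of its copy Gm28661 (chr1:24615506-24615565, minus strand). The second shows mt-Nd3 (chrM:9459-9518, plus strand, coding exon) and Gm28438 (chr1:24613060-24613119, minus strand). Capitals mark bases that differ, with positions counted from 1 at the 5′ end of the window: the mt-Co2 pair has no difference, and the mt-Nd3 pair has T3C, the only mismatch over its whole aligned length.
mt-Co2: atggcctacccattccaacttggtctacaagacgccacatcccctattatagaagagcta
Gm28661: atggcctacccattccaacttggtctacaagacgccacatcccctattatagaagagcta
mt-Nd3: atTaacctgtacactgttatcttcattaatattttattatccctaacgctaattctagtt
Gm28438: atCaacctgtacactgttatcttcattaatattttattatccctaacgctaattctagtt

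The division of counts differed from pair to pair. For mt-Co2, the subunit of complex IV that receives electrons from cytochrome c, the table holds 283 to 1900 counts per library, against 147729 to 315415 for Gm28661, so the copy took a median of 99.5% of the pair's counts (99 to 99.9% over the 15 libraries). The copy took 91.2% of the pair's counts for mt-Atp6 and Gm10925, 85.7% for mt-Co3 and Gm28437, and 53.4% for mt-Nd4l and Gm10222, all medians over libraries. Where the copy had 1 mismatch, most counts stood with the mitochondrial gene: the copy's median share was 22.5% for mt-Nd3 and Gm28438 and 0.185% for mt-Co1 and Gm29216. Gm29216 aligns to only 483 of the 1545 bases of mt-Co1, so mismatch and length cannot be told apart there. Identity alone did not set the share: Gm28439, a copy of part of mt-Nd4 with 0 mismatches over 876 bases, had a median share of 0% and at most 0.122%. The share itself varied between libraries, from 16.5 to 61.8% for mt-Nd4l and from 3.65 to 44.9% for mt-Nd3, so deposited counts of such genes depend on the split. The levels of the 13 mitochondrial mRNAs are given below with the 7 copies added, and the deposited values are set beside them where the result differs. Other copies, under 99% identical, held 0 to 15 counts per library and were not added.

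**Figure D1:**
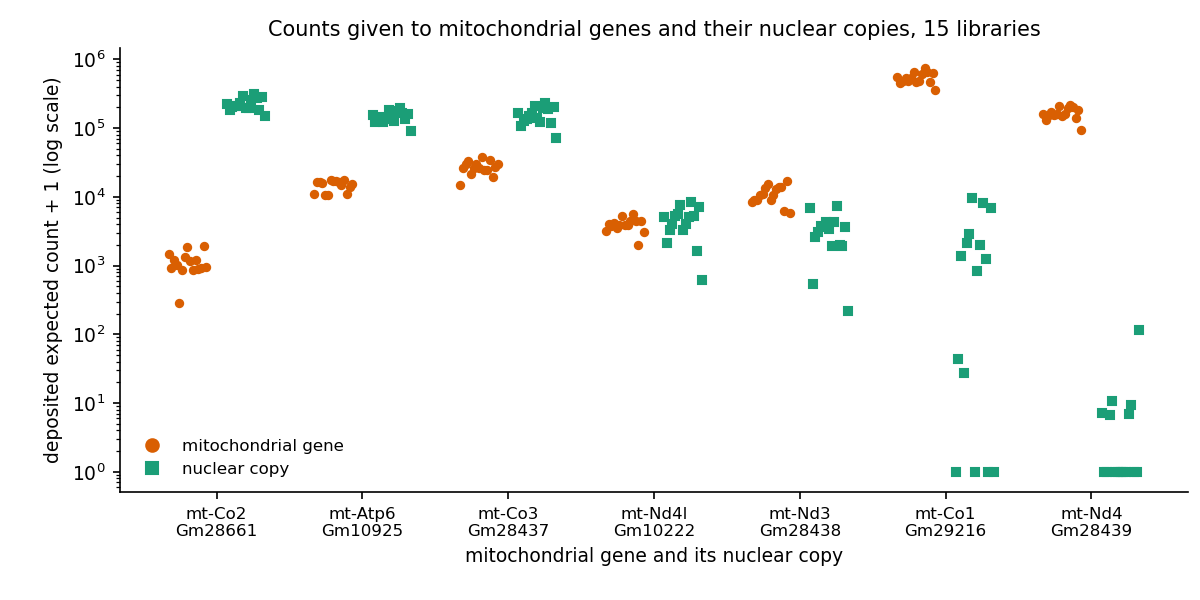
Deposited expected count plus 1 (vertical axis, log scale) of 7 mitochondrial genes (circles) and of their nuclear copies (squares), 1 point for each of 15 libraries. The squares lie above the circles for mt-Co2, mt-Atp6 and mt-Co3, and the sets overlap for mt-Nd4l and mt-Nd3. The copy of mt-Co1 lies below its gene and spreads from 0 to 9568 counts. The copy of mt-Nd4 stays near the bottom, with at most 113.

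Across all groups the mitochondrial genome supplied far more of the counts than the nuclear members. With copies added, the 13 mitochondrial mRNAs made up 6.39% ± 0.138 (SD, n = 3) of all counts in vehicle, and the 86 nuclear members 0.870% ± 0.0167. Levels per kilobase of transcript allow genes to be compared as far as the assigned length holds. In vehicle they were 11910 CPM per kb for mt-Co1 (CPM, counts scaled to a library of 1000000), 11150 for mt-Co2, 8058 for mt-Co3 and 7546 for mt-Atp6. As deposited, without its copy, mt-Co2 would stand at 36.5 CPM per kb. The order of the first 2 does not hold beyond their spread, with SDs of 145.8 for mt-Co1 and 609.3 for mt-Co2. The lowest mitochondrial mRNA was mt-Nd4l at 1062 CPM per kb, and the rRNAs stood at 1393 (mt-Rnr2) and 680 (mt-Rnr1), in libraries made for mRNA. Among nuclear members the highest was Atp5b, the catalytic beta subunit of ATP synthase, at 689 CPM per kb, followed by Cox6b1 at 327.

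Nuclear members of complex V had a median of 177 CPM per kb, those of complex IV 144, complex III 134, complex I 57.5 and complex II 52.2. The 4 subunits of complex II lay close together, from 41.4 for Sdhc to 58.2 for Sdha. The muscle isoforms of complex IV were lower than their general counterparts: Cox6a2 stood at 124.5 CPM per kb against 243 for Cox6a1, Cox7a1 at 8.48 against 56.9 for Cox7a2, and Cox8b at 25.7 against 269.5 for Cox8a. Several tissue-restricted isoforms were close to absent. Over all 15 libraries together Cox4i2, the lung isoform, had 7 counts. The testis isoforms Cox6b2, Cox7b2 and Cox8c had 8, 5 and 0, and Ndufa4l2, a gene induced by hypoxia in other cells, had 59. These 5 members were not tested. Of the 3 genes that encode the same c subunit of ATP synthase, Atp5g2 stood highest at 322.5 CPM per kb, Atp5g3 at 205 and Atp5g1 at 29.2. Before division by length they stood at 189, 147 and 78.3 CPM. Their assigned lengths were 586, 718 and 2676 bases, so the low value of Atp5g1 rests largely on its length.

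Myotube identity was checked with 9 markers, among them Myog, Acta1 and Ckm, whose summed level ran from 15200 to 17100 CPM over all libraries. At 500 µg/mL against vehicle 3 of these 9 rose and 4 fell (77.8% called, beside 33.3% of all tested genes). The 6 myoblast and reserve cell markers summed to 282 to 293 CPM at 500 µg/mL and to 304 to 323 in the other groups. Of these markers 1 rose and 3 fell at 500 against vehicle (66.7% called, also above the share of all tested genes). Schwann cell and neuron markers, of which 2 of 5 could be tested and 1 fell, summed to 55.4 to 62.6 CPM in vehicle, 46.4 to 53.7 at 100 µg/mL and 46.3 to 50.7 at 500. The part of these markers in the results at 500 µg/mL was not tested. Markers of adipocytes summed to at most 0.176 CPM with Cfd and Cidec at 0 throughout, endothelial markers to 0.988 to 1.97, and macrophage and leukocyte markers to 3.63 to 5.21. In bulk RNA, fewer cells of a type and less RNA per cell cannot be told apart. One library stood apart within its group: replicate 2 of JGT 500, which is described below with the results it touches.

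The solvent was examined first, by comparing vehicle with non-treated cultures. No member was called at a Benjamini-Hochberg adjusted p below 0.05 in edgeR's quasi-likelihood test fitted on all 15 libraries, against 1.31% of all tested genes. At an unadjusted p below 0.05 there were 13 of 96 members, beside 2414 of all 14461 tested genes. The median log2 fold change over members was 0.02. Among alternatives, DESeq2 called 3 members and a fit of the 2 groups alone 10, and the shares of all genes under those settings were not counted. In non-treated cultures mt-Rnr2 stood at 2645, 2275 and 2407 CPM, and in vehicle at 2172, 2215 and 2225, so the groups did not overlap, with a log2 difference of -0.15 ± 0.0471 (SE, adjusted p = 0.116). For mt-Rnr2 the call was made with no filter on low counts (adjusted p = 0.0417). It was also made in the fit of the 2 groups alone (adjusted p = 0.0475) and by DESeq2 (adjusted p = 0.046).

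Of the mitochondrial rRNAs, mt-Rnr2 was higher than in vehicle at every dose and mt-Rnr1 at 100 and 500 µg/mL. At JGT 20 µg/mL 0.325% of all tested genes were called (0.173% higher), and 1 of 96 members rose, mt-Rnr2, at 3043, 3007 and 2973 CPM. At 100 µg/mL 4.31% of all tested genes were called (2.09% higher), and 2 members rose, both rRNAs, with mt-Rnr2 at 3362, 3263 and 3274. At 500 µg/mL mt-Rnr2 stood at 3113, 3345 and 3383 CPM. Every JGT library lay above every control library for this rRNA.

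On the log2 scale mt-Rnr2 rose against vehicle by 0.45 ± 0.0471 at 20 µg/mL (adjusted p = 6.98e-05), 0.58 ± 0.0472 at 100 (adjusted p = 1.76e-07) and 0.57 ± 0.0472 at 500 (adjusted p = 8.13e-09). With non-treated as control the differences were smaller, 0.30 at 20 µg/mL, 0.434 at 100 and 0.4255 at 500, and stayed called. The 12S rRNA, mt-Rnr1, stood at 638, 657 and 654 CPM in vehicle, 987, 877 and 869 at 20 µg/mL, 1038, 1073 and 942 at 100, and 898, 1094 and 796 at 500. Its 9 JGT libraries also lay above the 6 controls, of which the highest had 773. It rose by 0.65 ± 0.124 at 100 µg/mL (adjusted p = 0.0129) and 0.52 ± 0.124 at 500 (adjusted p = 0.00795), and at 20 the difference of 0.49 ± 0.124 was not called (adjusted p = 0.162). The call at 100 µg/mL was lost without vehicle replicate 1 or 3 and without JGT 100 replicate 1 or 2 (adjusted p up to 0.058).

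Between doses neither rRNA was called. From 20 to 500 µg/mL mt-Rnr2 differed by 0.13 ± 0.047 (adjusted p = 0.0607) and mt-Rnr1 by 0.03 ± 0.123 (adjusted p = 0.899). For mt-Rnr2 the call was made under 4 alternatives, scaling by library totals, no filter on low counts, DESeq2 and leaving out replicate 1 of JGT 500 (0.16, adjusted p = 0.0328). The step between control and JGT libraries is the one at which the sample codes also change. Transcripts outside the membership also differed: Lars2, the mitochondrial leucyl-tRNA synthetase, ran from 142.6 to 184 CPM in controls and from 297 to 444 in JGT libraries, the nuclear noncoding RNA Malat1 from 1345 to 1624 and from 1729 to 2708, and the noncoding gene Gm26917 from 289 to 376 and from 325 to 586. The ranges were separate for Lars2 and Malat1 and overlapped for Gm26917. Their part in the rRNA result was not tested. Both rRNAs lie close together on the plus strand of mitochondrial DNA, mt-Rnr1 at chrM:70-1024 and mt-Rnr2 at chrM:1094-2675.

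**Figure D2:**
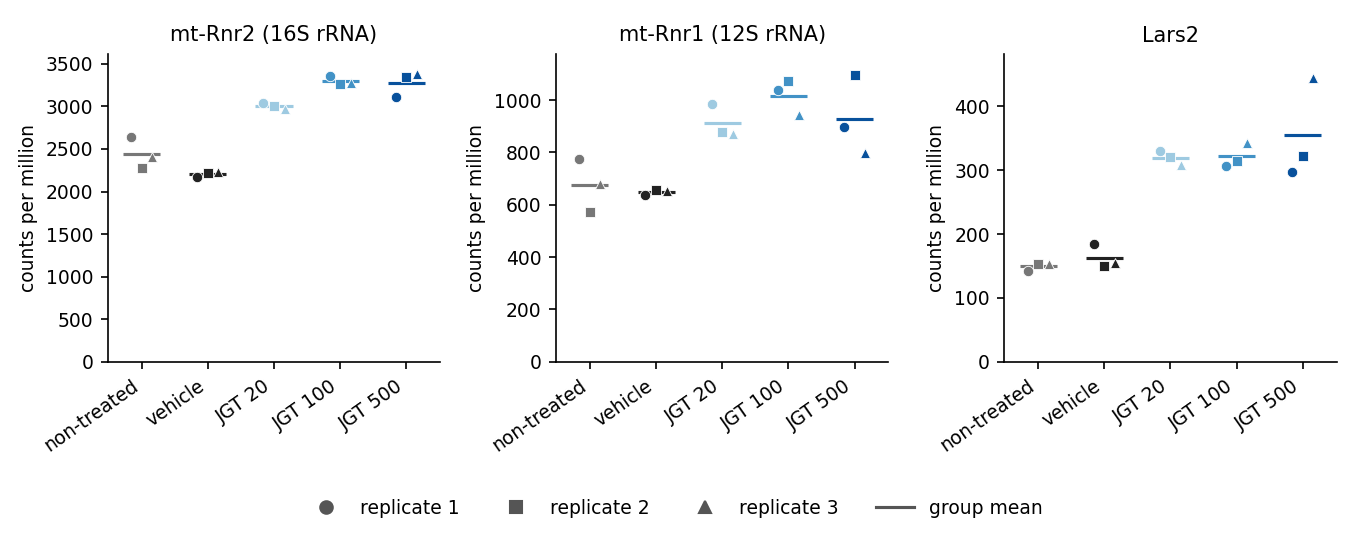
CPM (vertical axes, from 0) of mt-Rnr2, mt-Rnr1 and Lars2 in each library by group, with symbols for replicates and a bar at the group mean. The 9 JGT libraries lie above the 6 control libraries in every panel, and the means of the 3 doses lie close together for mt-Rnr2, from 3008 to 3300.

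The mitochondrial mRNAs did not follow the rRNAs. None of the 13 was called in any of the 6 comparisons, with or without the copies, although DESeq2 called 2 lower at 500 µg/mL. As deposited, 4 passed an unadjusted p below 0.05 at that dose against vehicle, beside 6248 of all 14461 tested genes. With copies added, their median log2 fold change against vehicle was -0.10 at 20 µg/mL, 0.07 at 100 and -0.35 at 500, where it ranged from -0.68 (mt-Nd4l) to 0.28 (mt-Nd6) and 12 of 13 were negative. As deposited, the median at 500 µg/mL was -0.30, the range -0.46 to 0.66, and 10 of 13 were negative, beside 7071 of all 14461 tested genes. The copies decided the sign for 2 genes: mt-Co2 went from 0.66 as deposited to -0.21, and mt-Atp6 from 0.00 to -0.16.

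The values behind that median differed mostly within the 500 µg/mL group. mt-Co1, the catalytic subunit of complex IV, stood at 18390, 18627 and 18177 CPM in vehicle and at 15751, 18651 and 12432 at 500 µg/mL, with replicate 2 inside the range of the other groups. mt-Cytb, the mitochondrial subunit of complex III, stood at 7083, 7192 and 6740 in vehicle and 5522, 6779 and 4060 at 500. mt-Nd2, a membrane subunit of complex I, stood at 2361, 2536 and 2368 in vehicle and 1700, 2317 and 1246 at 500. In these genes replicate 2 was highest and replicate 3 lowest of the JGT 500 libraries, and replicates 1 and 3 lay below every vehicle library, joined by replicate 2 for mt-Nd2.

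mt-Nd3 showed the same order with a wider spread, at 468, 562 and 568 CPM in vehicle and 269, 595 and 213 at 500 µg/mL. Replicate 2 of JGT 500 was above both others for 5714 of all 14461 tested genes and for 12 of 13 mitochondrial mRNAs. The exception was mt-Nd6, the mRNA transcribed from the opposite strand to all others, which stood at 1066, 827 and 772 CPM in vehicle and 1384, 839 and 1006 at 500 µg/mL, with replicate 2 the lowest. The kit keeps strand, but no source used here gives the strand option of the counting, so reads from the opposite strand at mt-Nd6 cannot be told apart from its own.

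Without replicate 2 of JGT 500, and with copies added, 10 of the 13 mRNAs fell, from -0.39 (mt-Co1, adjusted p = 0.0157) to -1.33 (mt-Nd4l, adjusted p = 0.00086), while mt-Atp6, mt-Atp8 and mt-Nd6 were not called. As deposited, 8 of 13 fell without that library, where 43.3% of all tested genes were called (22.4% lower). The rRNAs still rose, by 0.38 (mt-Rnr1) and 0.55 (mt-Rnr2). As a share of all counts, the 13 mRNAs with copies made up 5.35, 6.44 and 4.17% in the 3 libraries at 500 µg/mL, against 6.28 to 6.55% in vehicle, 6.29 to 6.98% at 100, 5.72 to 6.65% at 20 and 5.40 to 6.68% in non-treated cultures. The 20 µg/mL and non-treated groups thus also reached below the vehicle range, and replicates 1 and 3 at 500 were below all other libraries. The share of the nuclear members moved little, from 0.843 to 0.893% over all 15 libraries.

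**Figure D3:**
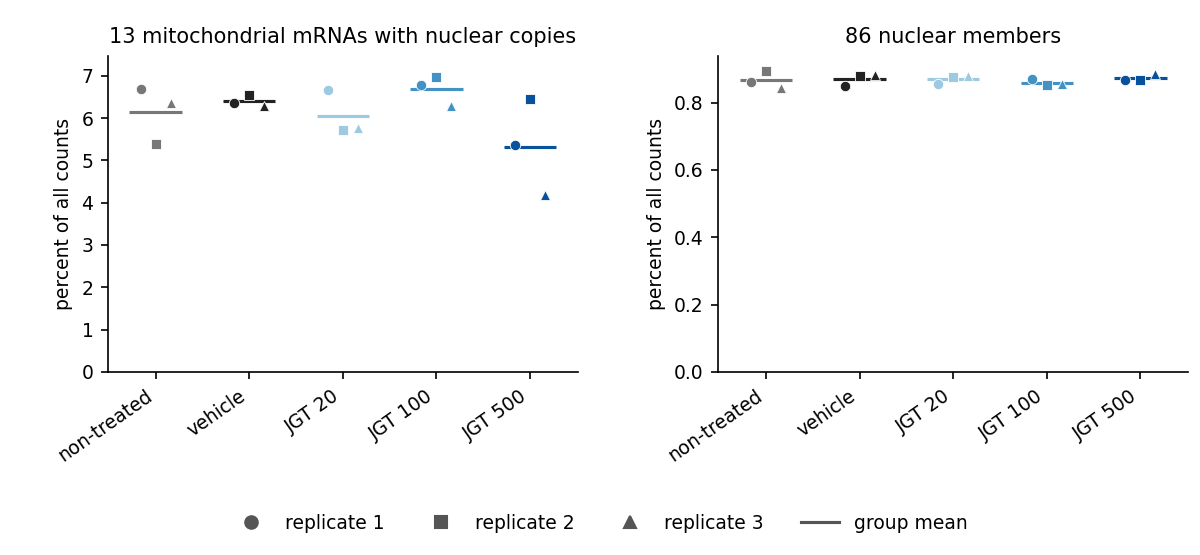
Percent of all counts (vertical axes, from 0) in the 13 mitochondrial mRNAs with their nuclear copies (left) and in the 86 nuclear members (right), by group, with symbols for replicates and bars at the group means. The mitochondrial share at JGT 500 spreads from 4.17 to 6.44%, while the nuclear share stays between 0.866 and 0.885% in that group.

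Nuclear members changed in both directions and by small amounts, and were called at the highest dose. None of the 81 was called against vehicle at 20 or 100 µg/mL by edgeR or DESeq2. At an unadjusted p below 0.05 there were 5 and 1, beside 1539 and 2306 of all 14461 tested genes. At 500 µg/mL 8 rose and 6 fell, which is 17.3% of them, and over all 96 members 10 rose and 6 fell (16.7%). That was below the 33.3% of all tested genes called in this comparison, of which 16.5% rose and 16.8% fell. The median log2 fold change of the nuclear members was -0.03, beside 0.01 for all tested genes, and their range was -0.57 to 0.41. DESeq2 called 9 nuclear members higher and 13 lower, beside 31% of all genes it tested.

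In complex I 5 of 36 nuclear members rose and 1 fell. Ndufb3, an accessory subunit of the membrane arm (chr1:58586384-58595964, plus strand), stood at 26.8, 25.7 and 28.6 CPM in vehicle and at 37.1, 32.1 and 38.7 at 500 µg/mL, so that the groups did not overlap and replicate 2 was nearest to vehicle. It rose by 0.41 ± 0.0678 on the log2 scale (adjusted p = 9.44e-05).

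Ndufa13, an accessory subunit also known as GRIM-19, rose by 0.20, but its replicate 2 at 87.0 CPM lay inside the vehicle range of 81.2 to 87.4. Ndufv1, which binds FMN and oxidises NADH, rose by 0.14 and Ndufv3, its neighbour in that module, by 0.13. The member that fell was Ndufab1, the mitochondrial acyl carrier protein, by 0.23 on the log2 scale. The other 30 were not called and had differences from -0.32 (Ndufb4) to 0.17 (Ndufs8).

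None of the 4 complex II subunits was called, although 3 passed an unadjusted p below 0.05, beside 6248 of all 14461 tested genes. Sdha, the flavoprotein, stood at 170.6, 166.3 and 169.1 CPM in vehicle and 177.5, 172.6 and 190.4 at 500 µg/mL, without overlap (0.10 ± 0.0411, adjusted p = 0.0824). Sdhb, the iron-sulfur subunit, stood at 58.1, 51.7 and 52.1 in vehicle and 71.5, 52.5 and 80.5 at 500, where replicate 2 was at the vehicle level. The membrane anchors had opposite signs, 0.15 for Sdhc and -0.15 for Sdhd.

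In complex III 1 of 9 nuclear members rose and 2 fell. Cyc1, the cytochrome c1 that passes electrons to cytochrome c (chr15:76343523-76346260, plus strand), stood at 105.4, 109.3 and 111.1 CPM in vehicle and 88.7, 97.8 and 97.0 at 500 µg/mL, without overlap. Its log2 fold change was -0.20 ± 0.0414 (adjusted p = 0.00086). Against non-treated cultures, at 98.6, 100.6 and 94.4 CPM, the groups overlapped and the difference was -0.05 (adjusted p = 0.398). Uqcr10, a small subunit, fell by 0.21, and Uqcrb, a small subunit that contacts the ubiquinone site, rose by 0.23, but replicate 2 of JGT 500 lay within the vehicle range for both. Neither was called against non-treated cultures, where Uqcrb differed by 0.03 (adjusted p = 0.805) and Uqcr10 by -0.08 (adjusted p = 0.361).

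None of the 14 tested nuclear members of complex IV was called, and 2 passed an unadjusted p below 0.05, beside 6248 of all 14461 tested genes. Of the 14 differences 12 were negative, with a median of -0.12, beside 7071 of all 14461 tested genes and a median of 0.01. The 14 share the same libraries, so their signs are not independent. Cox8a, one of the smallest subunits, stood at 134.8, 156.1 and 153.9 CPM in vehicle and 97.9, 142.2 and 69.6 at 500 µg/mL, with replicate 2 again in the vehicle range (-0.52 ± 0.216, adjusted p = 0.0916). Cox4i1 differed by 0.13 (adjusted p = 0.0736). The muscle isoforms were not called either: Cox6a2 differed by -0.35, Cox7a1 by -0.17 and Cox8b by -0.09, beside -0.01 for Cox6a1 and -0.24 for Cox7a2. Ndufa4, whose product is found with complex IV, differed by -0.20 (adjusted p = 0.0925), and Cox7a2l, a factor of supercomplexes of III and IV, by -0.00.

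In complex V 2 of 17 members rose and 3 fell. Atp5c1, the gamma subunit of the central stalk, stood at 178.0, 182.0 and 188.6 CPM in vehicle and 163.2, 167.3 and 150.4 at 500 µg/mL, without overlap, with a log2 fold change of -0.19 ± 0.0418 (adjusted p = 0.00154). Atp5o, the peripheral stalk subunit that ties the stalk to the catalytic head, fell by 0.16, with libraries at 137.6, 151.5 and 133.8 CPM below the vehicle range of 153.9 to 163.6. Atp5o is a symbol that GENCODE gives to 2 overlapping loci, so its counts may hold both. Atp5h, subunit d of the same stalk, rose by 0.28 ± 0.0821 (adjusted p = 0.0175), from 145.8, 144.3 and 136.6 CPM to 193.0, 145.1 and 180.7, with replicate 2 at the vehicle level.

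The other rise in this set was Atp5sl, which is named after ATP synthase but is not one of its subunits, by 0.30 ± 0.0832 (adjusted p = 0.00938), at 8.79, 8.83 and 9.27 CPM in vehicle and 11.5, 10.9 and 10.7 at 500 µg/mL. The c subunit genes differed among themselves. Atp5g1 fell by 0.30 (adjusted p = 0.0451) with 55.3, 77.5 and 57.5 CPM at 500 against 77.0 to 79.7 in vehicle, Atp5g2 had 106.3, 187.7 and 87.6 against 169.9, 199.7 and 197.4 and was not called (adjusted p = 0.0922), and Atp5g3 differed by 0.03.

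Many of these calls did not hold under other choices. With non-treated in place of vehicle as control, where 31.8% of all tested genes were called, 8 of the 16 calls were lost: those of Ndufa13, Ndufab1, Ndufv3, Cyc1, Uqcr10, Uqcrb, Atp5h (0.08, adjusted p = 0.51) and Atp5g1 (-0.12, adjusted p = 0.45). Ndufb3 stayed called at 0.24. Leaving out vehicle replicate 3, JGT 500 replicate 1 or JGT 500 replicate 3 ended 9 calls each time, those of Ndufa13, Ndufab1, Ndufv1, Ndufv3, Uqcr10, Uqcrb, Atp5h, Atp5o and Atp5g1. The calls nearest the threshold were lost most often, Ndufv1 in 6 of 14 alternatives (adjusted p up to 0.167), Ndufv3 in 7 (up to 0.203) and Atp5g1 in 9, with values from -0.12 to -0.48.

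**Figure D4:**
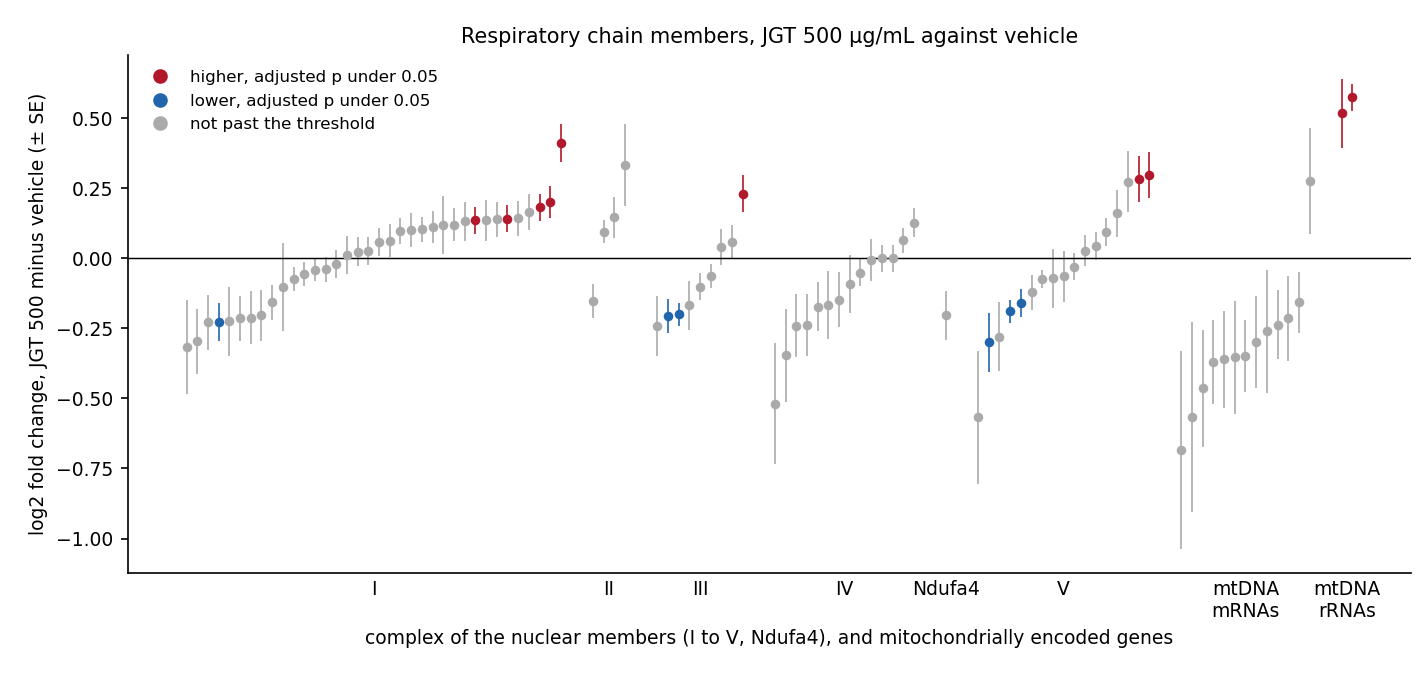
Log2 fold change of JGT 500 µg/mL minus vehicle with its standard error (vertical axis) for the 96 tested members, sorted within each complex, with copies added for the mitochondrial mRNAs. Colours mark the 10 members that rose and the 6 that fell. In complexes II and IV and among the 13 mitochondrial mRNAs no point is coloured.

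Among JGT libraries alone, where the sample codes do not change, no member was called between 20 and 100 µg/mL by edgeR or DESeq2. Of all tested genes edgeR called 0.429%. At an unadjusted p below 0.05 there were 3 members, beside 1091 of all 14461 tested genes. Between 20 and 500 µg/mL 4 members rose and 3 fell, 7.29% of 96, beside 23.3% of all tested genes (11.1% higher and 12.2% lower). Among those that rose were Ndufb3 by 0.26 ± 0.0666 (adjusted p = 0.00698), Ndufa13 by 0.16 and Atp5sl by 0.25. Cyc1 fell by 0.15, Atp5o by 0.18 and Ndufs4, an accessory subunit of the NADH-oxidising module, by 0.27, with 44.3, 40.0 and 41.4 CPM at 20 µg/mL and 30.04, 40.9 and 33.02 at 500. Of the 7, all but Ndufs4 were also called against vehicle in the same direction, through the same 3 libraries at 500 µg/mL, so the comparisons are not independent. Without replicate 1 of JGT 500, 6 of the 7 calls were lost, without replicate 1 of JGT 20 5 and without replicate 3 of JGT 500 4.

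Promoters were examined for letters bound by known activators of respiratory genes. RefSeq promoter sequences (GRCm38.p6, from 250 bases before to 50 after the transcript start) matched 70 of the 86 nuclear members. On both strands, GCGCA followed by any base and GCGC, the motif of nuclear respiratory factor 1 (NRF1), was found for 17 of the 70 members (24.3%), against 5.19% of all 27025 genes with a promoter. AAGATGGC, the YY1 motif, was found for 11 (15.7% against 3.19%), and AAGGTCA, the motif of the estrogen-related receptors, for 8 (11.4% against 5.38%). Among members called at 500 µg/mL the NRF1 letters were found for Atp5h, which rose, and for Atp5o and Atp5c1, which fell, so the same letters accompanied both directions. Not every called member could be searched: Cyc1 and Uqcrb were among those without a matched promoter. The windows with NRF1 letters are shown 5′ to 3′ on the gene's strand with the match in capitals, at chr11:115420041-115420070 for Atp5h, chr16:91931602-91931631 for Atp5o and chr2:10080430-10080459 for Atp5c1, all on the minus strand. The match begins 141 bases before the RefSeq start for Atp5h, 17 before it for Atp5c1 and at base 10 of the transcript for Atp5o, where it reads on the opposite strand.
Atp5h: gaccccgacgGCGCAGGCGCcgcgcccgcc
Atp5o: gctggcgcgcGCGCGTGCGCtctggcgcca
Atp5c1: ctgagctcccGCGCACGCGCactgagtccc

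The spread at the highest dose was larger than in the other groups and ran through most members. The median range over the 3 libraries, on the log2 scale, was 0.25 for nuclear members and 0.70 for mitochondrial mRNAs at 500 µg/mL, beside 0.11 and 0.14 in vehicle, and for all tested genes 0.21 and 0.12. Replicate 2 was above both others for 45 of 81 nuclear members, below both for 29 and between them for 7. Of all 14461 tested genes it was above both for 5714, below both for 5595 and between them for 3152. The members with the widest gaps, named after their values were seen, were Atp5g2, where replicate 2 was 0.96 above the mean of the others on the log2 scale, Cox8a (0.78) and Ndufb4 (0.64), and in the other direction Sdhb (-0.53), Ndufa5 (-0.41) and Atp5a1 (-0.37).

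A similar axis of variation was present in the single pair of libraries examined in each of the non-treated and 20 µg/mL groups. Other pairs of these groups, and all pairs of the vehicle and middle-dose groups, were not examined. Over 80 nuclear members, the gap of JGT 500 replicate 2 to its fellows correlated with the gap between replicates 1 and 2 of the non-treated group (Pearson's r = 0.801, Spearman's rho = 0.821) and of the 20 µg/mL group (r = 0.683, rho = 0.642). Over all 14461 tested genes the corresponding r was 0.271 and 0.262. These are correlations across genes, which share the libraries and are not independent replicates, and they are given as a description. With transcript length r was -0.249 and with GC content -0.018 over the same members.

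**Figure D5:**
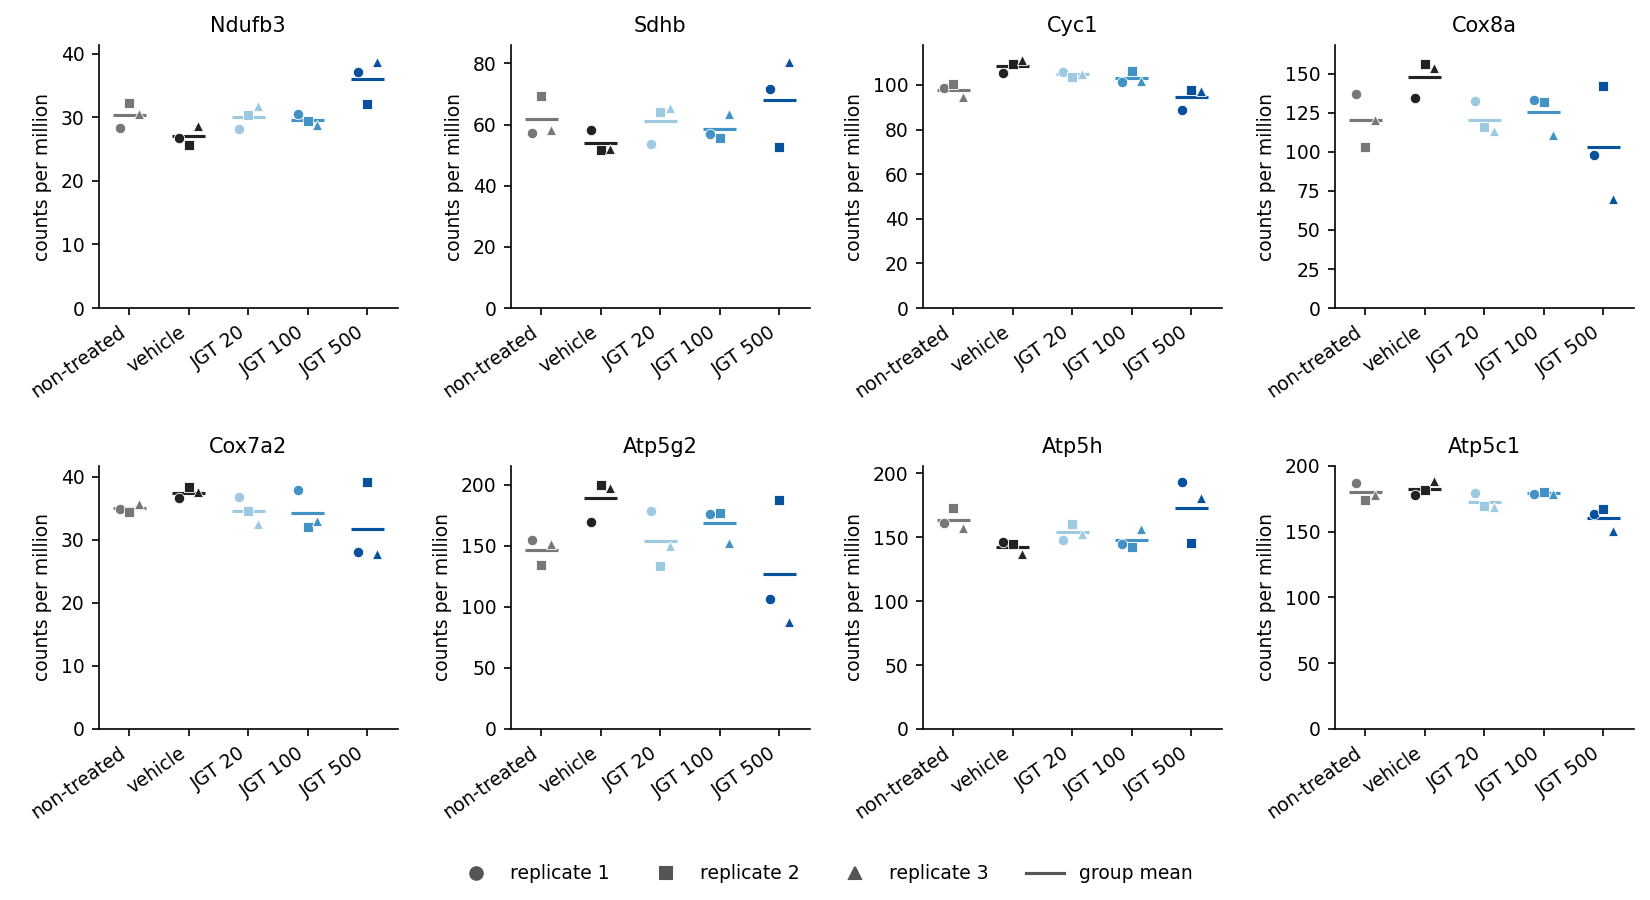
CPM (vertical axes, from 0) of 8 nuclear members in each library by group, with symbols for replicates and bars at group means. At JGT 500 replicate 2 (square) lies nearest to vehicle for Ndufb3, Sdhb, Cox8a, Cox7a2, Atp5g2 and Atp5h, while for Cyc1 and Atp5c1 all 3 libraries lie below vehicle.

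The number of members called at 500 µg/mL rests on that library. Without it 64 of 96 members were called against vehicle (66.7%), 25 higher and 39 lower, beside 43.3% of all tested genes (20.9% higher and 22.4% lower), and 15 of the 16 members called with all libraries were among them. In complex II Sdha, Sdhb and Sdhc rose (0.12, 0.49 and 0.23) and Sdhd fell by 0.25. In complex III 2 rose and 5 fell, in complex IV 1 rose (Cox4i1, 0.17) and 6 fell, among them Cox8a by 0.83, Cox6a2 by 0.53 and Cox7a2 by 0.43, and in complex V 5 rose and 8 fell, among them Atp5g2 by 0.97. In complex I 12 nuclear members rose and 10 fell. Against 20 µg/mL, 15 nuclear members were higher and 27 lower without that library, where 35.4% of all tested genes were called.

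Genes that assemble and supply the chain were counted from lists chosen with earlier results of these data known. At 500 µg/mL against vehicle 11 of 47 complex assembly factors rose and 3 fell (29.8%, median 0.06), beside 33.3% of all tested genes. Uqcc1, needed for making cytochrome b, rose by 0.37 ± 0.0418 (adjusted p = 7.87e-07) and Cox17, a copper chaperone of complex IV, by 0.31, while Coa5, an assembly factor of complex IV, fell by 0.24 (-0.15 against non-treated cultures). Of 15 tested genes for electron carriers 4 rose and 2 fell: Coq3 (0.41) and Coq2 (0.29), enzymes of ubiquinone synthesis, and Etfdh (0.14), which feeds electrons from fatty acid oxidation to ubiquinone, were among those that rose, with Coq5, and Etfb and Pdss1 fell (40% called, beside 33.3%). Against non-treated cultures Coq5, Etfdh, Etfb and Pdss1 were not called and Coq3 differed by 0.26. Cycs, cytochrome c itself, was not called.

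Of 31 genes for copying, transcribing and processing mitochondrial DNA and RNA 3 rose and 5 fell (25.8%, beside 33.3% of all tested genes). Tbrg4 and Fastkd3, which act on mitochondrial mRNA stability, fell by 0.31 (adjusted p = 4.75e-05) and 0.38, and Mterf4, a factor of mitochondrial ribosome assembly, rose by 0.27. The mitochondrial transcription factor Tfam and the polymerase Polrmt were not called, with 27.7 to 31.7 CPM against 29.1 to 30.6 in vehicle for Tfam and 45.2 to 49.3 against 43.6 to 46.4 for Polrmt. Of 76 mitochondrial ribosomal proteins 9 rose and 4 fell (17.1%, median 0.01), among them Mrpl51, which rose by 0.24, and Mrps10 and Mrpl20, which fell by 0.21 and 0.22. Against non-treated cultures Mrpl51 differed by 0.15 and Mrps10 by -0.14 (adjusted p = 0.0533). Their rRNA partners rose in the same libraries, as given above.

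Of 14 regulators of respiratory gene transcription 1 rose and 4 fell (35.7%), a share near the 33.3% of all tested genes. Ppargc1b, a PGC-1 coactivator, stood at 13.93, 12.998 and 13.212 CPM in vehicle and 10.2, 9.67 and 9.84 at 500 µg/mL, without overlap, and fell by 0.43 ± 0.0676 (adjusted p = 4.63e-05). Pprc1, a coactivator of the same family, fell by 0.28 and Hif1a and Myc by 0.13 and 0.14, and the nuclear receptor Ppard rose by 0.16. For Ppargc1b and Pprc1 replicate 2 was the lowest of the JGT 500 libraries, so here it was the farthest from vehicle. Nrf1 stood at 22.0, 21.6 and 22.0 CPM at 500 µg/mL against 22.5, 22.0 and 22.6 in vehicle and was not called, and neither were Gabpa, Esrra and Yy1.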

How the data were processed

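The 15 libraries were made from total RNA (TRIzol) with the MGIEasy directional mRNA kit and read as 100 bp pairs, per the labels' protocols. FastQC 0.11.9, Trim Galore 0.6.5, STAR 2.7.3a, RSEM 1.3.3 and GRCm38 (mm10) are named in the submitters' processing notes, without the annotation or strand option. The authors deposited expected counts per gene symbol, not normalized. Of the nuclear members 25 of 86, and of the mitochondrial members 8 of 15, had values that were not whole within 0.005, as happens when reads are shared between genes, and all values were rounded. Library totals ran from 26012844 to 36854199.

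Genes passing filterByExpr were scaled with TMM and tested in one edgeR 4.0.16 quasi-likelihood fit (robust, R 4.3.3) of all 15 libraries with a mean per group and 10 residual degrees of freedom. All tests are two-sided and p-values were adjusted by Benjamini-Hochberg over the 14461 tested genes, and a gene was called below 0.05. CPM values are TMM-scaled, and levels per kilobase use the median length of a gene's protein-coding transcripts in GENCODE M21. Nuclear copies were found by aligning transcripts and added to their mitochondrial genes, an alternative added after the data were seen. The fit was tested on simulated counts.

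Members, lists and tests were chosen with earlier results of these data known. Named were the 15 mitochondrial genes, isoform sets, Sdha to Sdhd, up to 3 called members of smallest p per complex and comparison and per pathway list, and all members of sets of 5 or fewer. Other genes were named after their values were seen, and 1 gene the rule names is not reported here. Alternatives were other scalings, filters and fits, DESeq2 1.42.0, non-treated as control, a replicate block and each library left out.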

Additional observations from a re-analysis of the deposited data

How the results depend on the processing

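The depth of 26012844 to 36854199 counts per library left 5 of 101 members untested, and 3 libraries per group with a common coefficient of variation of 5.31% limit which small differences can be called. Leaving out each library in turn changed the counts at 500 µg/mL against vehicle, where 25.4 to 43.3% of all tested genes were called. Nuclear members higher ran from 3 to 23, those lower from 2 to 31 and mitochondrial members lower from 0 to 8. The highest values came without JGT 500 replicate 2. Against 20 µg/mL the same ranges were 0 to 15, 0 to 27 and 0 to 4, and 0 to 1 for mitochondrial members higher. At 100 µg/mL 1 to 2 rRNAs were called. Single values that changed sign when a library was left out were mt-Rnr1 in vehicle against non-treated (-0.1615 to 0.0549), mt-Rnr1 in 500 against 20 µg/mL (-0.11 to 0.13) and mt-Atp6 in 500 against vehicle (-0.17 to 0.18), none of which was called. In 500 µg/mL against vehicle the calls of Ndufb3, Atp5c1, Atp5sl, mt-Rnr1 and mt-Rnr2 held under all alternatives run, as did 11 of the 20 assembly, carrier, RNA handling, ribosomal and regulator genes named as changed.

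In fits of the 2 compared groups alone, which have fewer samples, the nuclear counts higher and lower were 6 and 3 for vehicle against non-treated with 1 mitochondrial member lower, 3 and 3 for 500 µg/mL against vehicle, 1 and 0 for 500 against 20, and 1 higher for 100 against vehicle. The mitochondrial count higher was then 2 for 20 against vehicle and 1 for 100 against 20. DESeq2 gave, for vehicle against non-treated, 2 nuclear higher and 1 mitochondrial lower, 2 mitochondrial higher for 20 against vehicle, 13 nuclear and 2 mitochondrial lower for 500 against vehicle, and 2 nuclear and 1 mitochondrial higher for 500 against 20. Without a filter on low counts 1 mitochondrial member was lower in vehicle than non-treated, and 1 was higher at 500 than at 20 µg/mL, as with scaling by library totals (1). With non-treated as control 4 nuclear members were higher and 2 lower at 500 µg/mL, and 1 was higher at 100. At 500 µg/mL against vehicle 23.8% of all genes tested were called in the fit of the 2 groups alone and 31% by DESeq2. With non-treated as control the share at 500 µg/mL was 31.8%. Shares of all genes under these settings were not counted for the other comparisons. The cause of the differences between settings was not tested.

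With nuclear copies added, the percent of counts in mitochondrially encoded members was 6.46 in non-treated, 6.68 in vehicle, and 6.44, 7.11 and 5.75 at 20, 100 and 500 µg/mL, by construction above the deposited 4.73, 4.88, 4.73, 5.18 and 4.23. At 500 µg/mL against vehicle the sign of mt-Atp6, near 0 as deposited, turned with RLE scaling (-7e-04), no filter (-2e-04), DESeq2 (-8e-04), copies added (-0.16) and non-treated as control (-0.26). That of mt-Co2 turned with copies added (-0.21) and with non-treated as control (-0.091), and that of mt-Nd6 with non-treated as control (-0.021).

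Same-numbered replicates did not deviate together, with correlations from -0.203 to 0.117 over the 6 comparisons, and at most 2 of 3 libraries correlated best with their own number, so the numbers were not taken to pair samples. With the replicate number as a block, 9 nuclear members were higher and 8 lower at 500 µg/mL against vehicle, beside 32.9% of all tested genes called. Against 20 µg/mL 3 were higher and 3 lower, and against vehicle mt-Atp6 was -0.0173.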
